A study of Mus musculus with 12 samples.

Results

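The drug transporters of the renal tubule were examined as 9 genes in RNA of whole mouse kidneys, all 9 found by their symbols among the 23420 genes of the count table. They are Slc22a6, Slc22a8, Slc22a7, Slc22a12, Slc22a2, Slc47a1, Slco1a1, Slco4c1 and Abcc2. The study took kidneys from male C57BL/6J mice, asking how renal ischemia changes the tissue and whether anaesthesia during ischemia alters that change. There were 4 control kidneys and 8 kidneys clamped for 20 min and collected 24 h later, with 1 library per kidney. By the study's methods the controls were kidneys removed by nephrectomy, although the sample records give the same 20 min and 24 h for them too, and the clamp was a remotely closed device placed under ketamine and xylazine, with only brief isoflurane sedation for the mice called conscious. The controls therefore differed from the ischemic kidneys in surgery as well as in ischemia, and the contributions of both cannot be told apart here. For the ischemic kidneys the titles and the group field disagree. Ischemia set A (4 kidneys) is titled as anaesthetised and has conscious in its group field, and ischemia set B (4 kidneys) has the reverse, so the sets carry neutral names and no difference between them is assigned to anaesthesia. No label says that the kidneys of a group came from separate mice, and p-values measure only the spread between these samples.

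Proximal tubule cells clear drugs, toxins and metabolic waste by carrying them from blood to urine in successive steps. On the basolateral, blood-facing side, OAT1 (Slc22a6) and OAT3 (Slc22a8) take up organic anions in exchange for dicarboxylates, and OCT2 (Slc22a2) takes up organic cations such as metformin and creatinine. On the luminal side, MATE1 (Slc47a1) extrudes cations in exchange for protons, MRP2 (Abcc2) pumps anions and conjugates out at the cost of ATP, and URAT1 (Slc22a12) reabsorbs urate. OAT2 (Slc22a7), OATP1A1 (Slco1a1) and OATP4C1 (Slco4c1) are further carriers of organic anions. HNF4A, a transcription factor of the proximal tubule, is a known regulator of many of these genes.

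Of the 9 genes, 4 lie on mouse chromosome 19 (mm10). Slc22a8 (chr19:8591254-8611835) and Slc22a6 (chr19:8618039-8628299) are neighbours on the plus strand, 6203 bases apart. Slc22a12 (chr19:6535845-6543032, minus strand) overlaps Nrxn2 on the opposite strand, and Abcc2 (chr19:43782192-43840740, plus strand) overlaps no other gene. The others are Slc22a7 (chr17:46432183-46438457, minus), Slc22a2 (chr17:12584132-12628488, plus), Slc47a1 (chr11:61343401-61378345, minus), Slco1a1 (chr6:141907282-141946962, minus) and Slco4c1 (chr1:96816270-96872171, minus). Reads of close relatives could be mixed in a small part of the exons. Of all 100-base stretches of the Slco1a1 transcripts, 0.614% were also found in Slco1a4 or Slco1a5.

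The libraries held between 15367342 and 44793350 counts, and 10116 to 11574 genes were detected in each. After the filter on low counts 11664 genes were tested, 8 of the 9 transporters among them. Replicate 4 of set B stood apart from the other kidneys, at 149 on the second principal component against -41.4 to 25.6 for the others, and it also had the smallest total. Several values that move with this kidney are given with and without it. Proximal tubule markers were detected in every control. Their control means ran from 38.3 CPM (the count scaled to the total of the library) for Slc2a2 to 4866 CPM for Slc34a1, the phosphate carrier. The fat and adrenal genes Adipoq, Plin1 and Cyp11b1 were at 0 in all 12 kidneys, and the adrenal gene Star was at 1.29 and 1.55 CPM in set A replicates 3 and 4, at 1.43 in set B replicate 2 and at 0 in the others.

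In control kidneys the transporter mRNAs differed widely in level. Scaled to exon length, Slc22a6 was the most abundant at 182 ± 31.5 CPM per kb (SD, n = 4), above every value of the other 8 genes. Next came Slc22a2 (25.1 ± 3.13 CPM per kb), Slc22a12 (24.0 ± 4.40), Slc22a8 (23.5 ± 2.61) and Slc47a1 (19.9 ± 0.929). Within these 4 each gene overlapped its neighbour in the order, although every Slc22a2 value was above every Slc47a1 value. Abcc2 followed at 12.1 ± 2.35 CPM per kb, below all of the former, and Slc22a7 (6.20 ± 2.65) and Slco1a1 (4.88 ± 1.60) overlapped each other below it. Slco4c1 was at the bottom with 0.0688 ± 0.10 CPM per kb. In the ischemic kidneys the order was different. Abcc2 ranked 2 in both sets, at 12.8 ± 3.06 (set A) and 10.5 ± 3.40 (set B) CPM per kb, behind Slc22a6 at 65.8 ± 17.0 and 40.4 ± 19.7, and Slc22a2 was at rank 6. In set A Abcc2 did not overlap the next gene, Slc47a1, and in set B it did (lowest 5.86 against a highest of 7.43 CPM per kb). Ranks 3 to 6 overlapped their neighbours in both sets and are not an order beyond the spread.

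**Figure D1:**
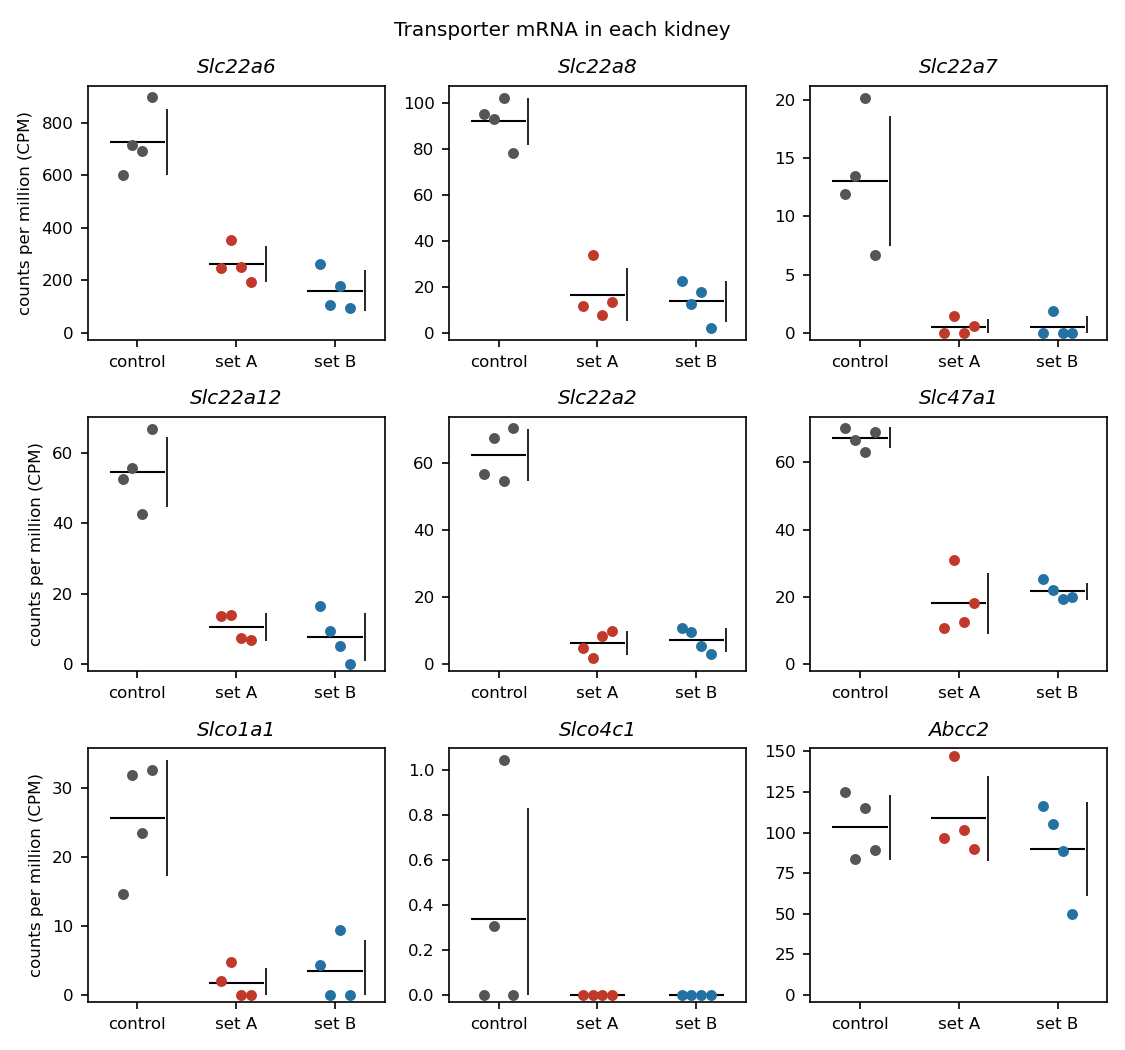
CPM of the 9 transporter genes in each of 12 kidneys (4 control, 4 ischemia set A, 4 ischemia set B); points are kidneys in order of replicate number, horizontal bars the means and vertical lines ± 1 SD, cut at 0. In 7 panels every ischemic kidney lies below every control kidney, Abcc2 overlaps between all groups, and Slco4c1 is near 0 throughout.

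The basolateral anion carriers OAT1 and OAT3 were lower in every ischemic kidney than in any control. Slc22a6 (OAT1) measured 601, 715, 691 and 900.0 CPM in control replicates 1 to 4, 246, 356, 253 and 194 in set A, and 263, 105, 181 and 93.9 in set B. The groups did not overlap with the control, and the set means were 36.1% and 22.1% of the control mean. On the log2 scale set A changed by -1.50 (SE 0.26, edgeR adjusted p = 2.01e-04) and set B by -2.20 (SE 0.26, edgeR adjusted p = 3.38e-06). Slc22a8 (OAT3) read 95.2, 92.8, 102 and 78.0 CPM in the controls, 11.6, 33.7, 7.93 and 13.4 for set A and 22.5, 12.6, 17.7 and 2.02 for set B. Here too there was no overlap, and set A replicate 2 was the highest and set B replicate 4 the lowest of the ischemic kidneys. The log2 changes were -2.50 (SE 0.50, edgeR adjusted p = 8.43e-04) and -2.76 (SE 0.50, edgeR adjusted p = 3.83e-04), which left 18.1% and 14.9% of the control mean. In RNA of whole kidneys fewer proximal tubule cells and less RNA per cell cannot be told apart, which holds for every fall described here. All 15 proximal tubule markers listed beside the transporters fell in both sets, and the sum of their CPM went from a range of 10977 to 12311 in the controls down to 1334 to 2329 for set A and 1468 to 2968 for set B. None of them was at 0 in a whole group, and their part in the changes of the transporters was not tested.

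OAT2, the third anion carrier of the family, was close to the detection limit after ischemia. Slc22a7 was at 11.9, 13.4, 20.2 and 6.64 CPM in the control kidneys (259 counts in replicate 4), and at 0, 1.43, 0 and 0.595 in set A and 0.0334, 1.92, 0 and 0 in set B. It was thus undetected in 4 of the 8 ischemic kidneys, where the limit that a count of 0 allows (3 counts) lay between 0.0670 and 0.195 CPM, counting error only. The fitted log2 changes were -4.74 (SE 1.55, edgeR adjusted p = 0.0322) and -4.76 (SE 1.55, edgeR adjusted p = 0.0320). These calls were weak. With DESeq2 the adjusted p values were 0.0775 for set A and 0.0755 for set B, and without set B replicate 4 it was 0.0523 in set B. Single kidneys also moved the size, to -6.22 in set A without its replicate 2 and to -9.48 in set B without its replicate 2.

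The urate carrier URAT1 fell as well. Slc22a12 values were 52.6, 55.6, 42.6 and 66.8 CPM in the controls, 13.7, 14.0, 7.32 and 6.78 for set A and 16.4, 9.38, 4.99 and 0 for set B. The highest ischemic kidney was below the lowest control, and set B replicate 4 had no count at all. Set A changed by -2.41 (SE 0.69, edgeR adjusted p = 0.0144) and set B by -2.82 (SE 0.70, edgeR adjusted p = 0.00535) on the log2 scale, or by -2.41 (edgeR adjusted p = 7.29e-05) when that kidney was left out. In set A the call was lost with DESeq2 (adjusted p = 0.0600), with limma-trend (adjusted p = 0.101) and without set A replicate 3. Without a stated strand setting, reads of the overlapping Nrxn2 cannot be told apart from those of Slc22a12.

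The route of organic cations was lower at both ends. Slc22a2 (OCT2) stood at 56.8, 67.5, 54.5 and 70.3 CPM in the controls, 4.83, 1.87, 8.48 and 9.87 for set A and 10.8, 9.69, 5.48 and 3.12 for set B. The lowest control was above the highest ischemic kidney by a wide margin, and only 10.1% and 11.7% of the control mean remained. With log2 changes of -3.34 (SE 0.45, edgeR adjusted p = 1.42e-05) and -3.11 (SE 0.45, edgeR adjusted p = 3.01e-05), these calls held under all 19 alternative settings. Slc47a1 (MATE1), which completes cation secretion at the lumen, measured 70.2, 66.6, 63.1 and 69.1 CPM in the controls, 10.6, 30.8, 12.5 and 18.3 for set A and 25.1, 22.0, 19.3 and 19.8 for set B. The control values of MATE1 were the tightest of the 9 genes, with a coefficient of variation of 4.67%. Set A differed from the controls by -1.93 (SE 0.28, edgeR adjusted p = 3.41e-05) and set B by -1.66 (SE 0.28, edgeR adjusted p = 1.58e-04) on the log2 scale, leaving 26.8% and 32.1% of the control mean.

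Of the OATP carriers one was lower and the other was barely present. Slco1a1 (OATP1A1) was at 14.7, 31.9, 23.6 and 32.7 CPM in the controls, 2.01, 4.82, 0.0223 and 0 for set A and 4.38, 0, 9.43 and 0 for set B. Although no ischemic kidney reached the lowest control (exact permutation p = 0.0286 in each set, two-sided, the smallest that 4 against 4 kidneys allow), the spread within the sets was large. The change passed the test in set A at -3.95 (SE 1.33, edgeR adjusted p = 0.0388). In set B it was -2.92 (SE 1.27, 95% interval -5.58 to -0.27, edgeR adjusted p = 0.112) and did not pass, and the difference between the sets was 1.02 (SE 1.22, edgeR adjusted p = 0.9997). The set A call was lost in 8 of the 19 alternative settings, among them DESeq2 (adjusted p = 0.140), and set B passed with limma-trend (-5.17, adjusted p = 0.0170) and with no low-count filter (-2.95, edgeR adjusted p = 0.0418). Single kidneys moved the size, to -5.23 in set A without its replicate 2 and to -4.10 in set B without its replicate 3. Slco4c1 (OATP4C1) gave 12 counts in control replicate 2 and 28 in control replicate 3, equal to 0.306 and 1.05 CPM, and 0 counts in the other 10 kidneys. It did not pass the filter on low counts, a change was not detectable at this depth, and the gene overlaps the antisense gene Panct2, so that without a stated strand setting these few reads cannot be told apart from reads of Panct2.

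The luminal efflux pump MRP2 was the exception. Abcc2 was at 125, 83.5, 115 and 89.4 CPM in the controls, 96.5, 147, 102 and 89.8 for set A and 116, 105, 88.6 and 49.98 for set B. All 3 groups overlapped, with set A replicate 2 the highest and set B replicate 4 the lowest kidney. The log2 change was 0.05 (SE 0.23, 95% interval -0.43 to 0.53, edgeR adjusted p = 0.933) in set A. In set B it was -0.21 (SE 0.23, 95% interval -0.69 to 0.27, edgeR adjusted p = 0.610), and -0.01 without replicate 4 of that set. The sign in set A turned without control replicate 2, control replicate 4 or set A replicate 2 (lowest value -0.13). The lower ends of these intervals lie above the log2 change of each of the other 7 tested transporters.

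**Figure D2:**
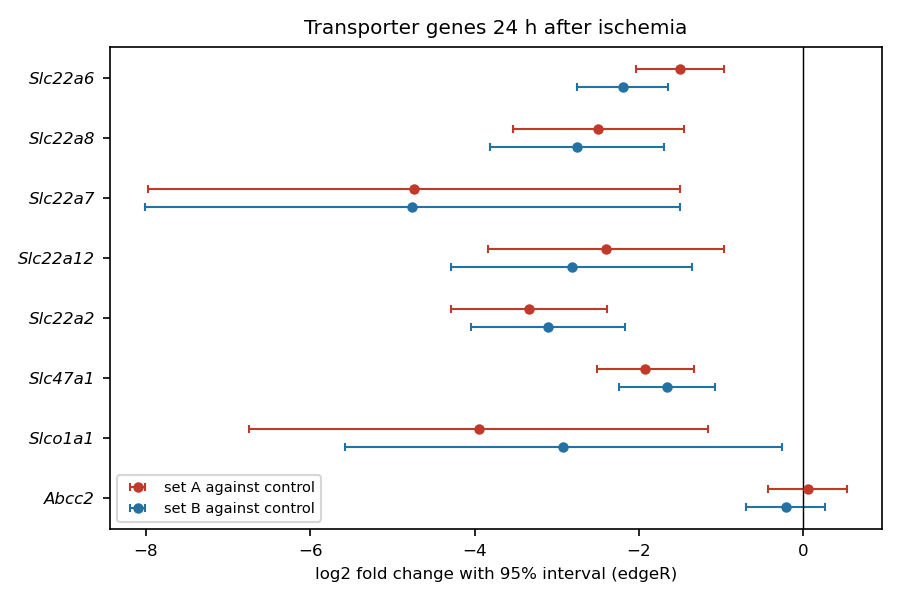
Log2 fold change against control with its 95% interval (edgeR) for the 8 transporter genes tested, set A in red and set B in blue. The intervals of Abcc2 include 0 in both sets, and those of the other 7 genes lie below 0, although Slco1a1 in set B did not pass the adjusted threshold.

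In all, 7 of the 8 genes tested were called lower in set A, where 11.7% of all genes tested were called lower and 10.5% higher. In set B 6 of the 8 were called lower, against 11.9% of all genes lower and 10.9% higher. No transporter was called higher in either set. Every ischemic kidney lay below every control in 7 of the 8 genes in each set, as did 15.2% (set A) and 14.7% (set B) of all genes. The 8 genes had a median log2 change of -2.45 (set A) and -2.79 (set B), and that of all genes was -0.02 in each. Both comparisons use the same 4 controls. DESeq2 called 4 in set A (Slc22a2, Slc22a6, Slc22a8 and Slc47a1), and 4 were called without set A replicate 3, while set B kept 5 to 7 calls under every alternative, 5 of them without its replicate 4.

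Ratios of a pair of transporters within a kidney, exit over entry step for anions and for cations and one uptake carrier over the other for the OAT neighbours, were described for pairs chosen after the data had been seen, and therefore without a test. Counts of the anion pump Abcc2 per count of the anion carrier Slc22a6 were 0.208, 0.117, 0.167 and 0.0993 in the controls, 0.393, 0.414, 0.403 and 0.463 for set A and 0.442, 0.997, 0.490 and 0.532 for set B. Every ischemic kidney was above every control, and the geometric mean was 2.94-fold higher for set A and 4.11-fold higher for set B. For cations, Slc47a1 per count of Slc22a2 was 1.24, 0.987, 1.16 and 0.984 in the controls, 2.20, 16.5, 1.47 and 1.85 for set A and 2.33, 2.28, 3.51 and 6.35 for set B. Again there was no overlap with the controls, with ratios 2.90-fold and 3.04-fold higher. Without set A replicate 2 the ratio in set A was 1.67-fold higher. The ratio of the neighbours Slc22a8 and Slc22a6 overlapped between groups. Set A differed from the controls by -1.19 on the log2 scale and set B by -0.90, or by -0.35 without replicate 4 of set B.

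**Figure D3:**
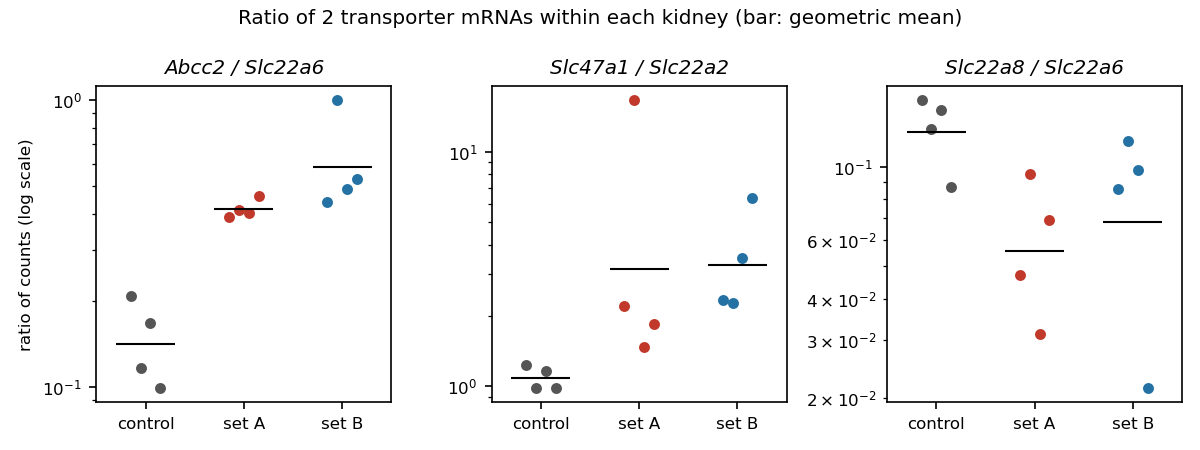
Ratio of counts of a pair of transporter genes within each kidney, on a log axis, for control, set A and set B (points are kidneys, bars geometric means, n = 4 each). Abcc2 over Slc22a6 and Slc47a1 over Slc22a2 are above every control in all 8 ischemic kidneys, and Slc22a8 over Slc22a6 overlaps the controls.

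Between the ischemia sets no transporter was called. The background was as small, 0.00857% of all genes tested (1 of 11664), with 587 genes at an unadjusted p under 0.05. DESeq2 called 44 genes and no transporter. The smallest unadjusted p was that of OAT1. Slc22a6 differed by -0.70 on the log2 scale in set B relative to set A (SE 0.25, 95% interval -1.23 to -0.17, unadjusted edgeR p = 0.0129, adjusted p = 0.930), the ranges of both sets overlapped (exact permutation p = 0.143), and without set B replicate 4 the value was -0.51. For the other genes the intervals of the difference were -1.26 to 0.74 for Slc22a8, -0.65 to 1.11 for Slc22a2, -0.31 to 0.84 for Slc47a1, -0.74 to 0.22 for Abcc2 and -1.80 to 0.97 for Slc22a12. Without set B replicate 4 the difference of Slc22a12 was -0.0046 in place of -0.41, and that of Slc22a8 0.10 in place of -0.26. Those of Slc22a7 (-2.95 to 2.91) and Slco1a1 (-1.53 to 3.58) were so wide that changes of several fold either way lie inside them.

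The ischemic kidneys differed among themselves, and by different amounts for different genes. Across the 8 kidneys the coefficient of variation was 27.6% for Abcc2, 32.8% for Slc47a1, 41.1% for Slc22a6, 49.98% for Slc22a2, 59.8% for Slc22a12, 63.6% for Slc22a8, 132% for Slco1a1 and 154% for Slc22a7. In the controls it lay between 4.67% and 42.7%. Set B replicate 4 was the lowest for 4 of the 8 genes tested without a tie, and set A replicate 2 the highest for 4. The mean of log2 CPM over the 8 genes was 3.10, 4.15, 2.51 and 2.99 in set A and 3.82, 3.19, 3.31 and 0.98 in set B, against 5.96 to 6.18 in the controls. Slco1a1, Slc22a12 and Slc22a7, which had kidneys at 0, varied most, with log2 SDs of 3.17, 2.55 and 2.12 over the 8 kidneys. The SDs of the others were 0.455 to 1.21, so the mean rests largely on those genes. Between pairs of the 8 genes r was -0.32 to 0.92 over these kidneys (median 0.38, 6 of 28 pairs below 0). The mean was set against 3 measures of the same kidneys. With the mean of the 15 proximal tubule markers Pearson's r was 0.80 (exact permutation p = 0.0133, adjusted over the 3 relations 0.0398) and Spearman's rho 0.81 (exact permutation p = 0.0218, adjusted 0.0653). Taking deviations from the mean of each set gave r = 0.82, and without the 2 kidneys with the most extreme marker means r was 0.86 (exact permutation p = 0.0264) and rho 0.60 (exact permutation p = 0.242). Both measures come from the same library, and leaving out 1 kidney raised the adjusted p of r above 0.05 for 6 of the 8 kidneys.

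**Figure D4:**
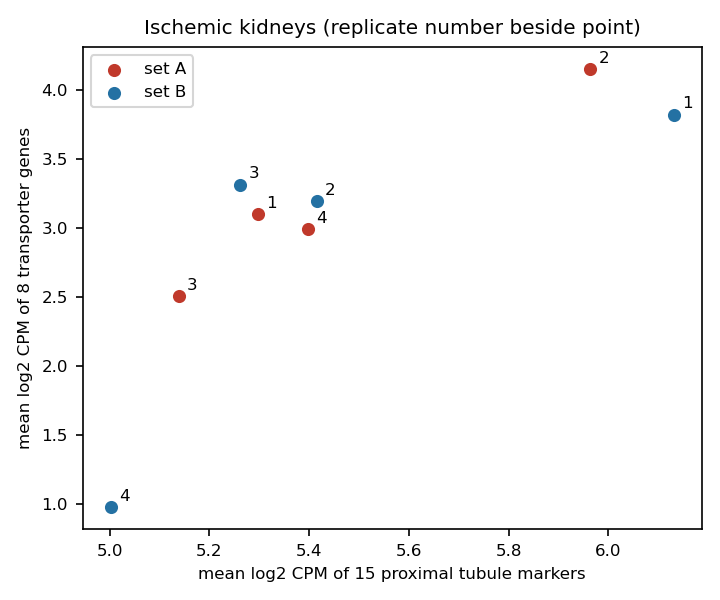
Mean log2 CPM of the 8 tested transporter genes against that of 15 proximal tubule markers in the 8 ischemic kidneys, replicate numbers beside the points. Set A replicate 2 and set B replicate 1 are high in both, and set B replicate 4 is the lowest in both (0.98 on the vertical axis).

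Neither relation to the injury markers passed the test. Havcr1, which encodes kidney injury molecule KIM1, was at 0 to 0.0255 CPM in the controls and 0.592 to 24.4 in the ischemic kidneys, and its r with the transporter mean was -0.04 (exact permutation p = 0.912), with rho -0.10 (exact permutation p = 0.840). Leaving out set B replicate 3 and set A replicate 2, the most extreme for Havcr1, turned r to 0.90 (exact permutation p = 0.0306), so the value rests on those kidneys. For Lcn2, which encodes the injury marker NGAL, r and rho were both -0.43 (exact permutation p = 0.298 and 0.299), and r was -0.33 (exact permutation p = 0.621) without its 2 most extreme kidneys.

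Among relatives of the uptake carriers falls outnumbered rises. Of 20 other SLC22 genes 11 were tested, and none rose, while 6 fell in set A and 7 in set B. Slc22a18 fell by 2.57 and 2.86 on the log2 scale in sets A and B, Slc22a5, the carnitine carrier OCTN2, fell by 1.63 and 1.76, and Slc22a17, a receptor for lipocalin, fell by 1.30 and 1.15. The median log2 change of the 11 was -1.63 and -1.76. Among 5 SLCO relatives tested (medians -0.12 and -1.20) 2 fell and 1 rose in each set. Slco3a1 fell by 0.99 and 1.20, and the prostaglandin carrier Slco2a1 rose by 1.88 and 2.13.

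Among efflux pumps other than Abcc2 rises outnumbered falls. Of 9 tested 5 were called higher and 1 lower in set A, and 4 were called higher and none lower in set B. The median log2 change was 1.20 and 0.55. Abcc3 (MRP3), a basolateral anion pump, rose by 2.90 and 2.84 from a low control level of 0.757 CPM. The P-glycoprotein gene Abcb1b rose by 1.99 and 1.82, and Abcc1 (MRP1) rose by 1.20 and 1.32. Abcg2 (BCRP) and Abcb1a, named after their values had been seen, were called in set A, Abcg2 at -1.14 (edgeR adjusted p = 0.0181) and Abcb1a at 1.71 (edgeR adjusted p = 0.0154). In set B they were at -0.80 and 0.20 and were not called, and for neither did the difference between the sets pass the test (edgeR adjusted p = 0.930 for Abcb1a and 0.9997 for Abcg2). Every set B value of Abcg2 was nevertheless below every control. Abcc6, also named after its values had been seen, was lower in every ischemic kidney than in any control but was not called. Its log2 changes were -4.21 (edgeR adjusted p = 0.0951) in set A and -3.61 (edgeR adjusted p = 0.144) in set B. Slc47a2, the second MATE gene, was at 0 in all kidneys.

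Among partners of the transporters falls outnumbered rises, and many were not called. Of 8 genes of ion gradients and scaffolds none rose, while set A had 4 falls and set B 5. Pdzk1, the scaffold that holds luminal carriers at the brush border, fell by 3.18 and 2.28. Slc13a3, the dicarboxylate carrier that maintains the gradient used by OAT1 and OAT3, fell by 1.92 and 2.31, and Slc9a3 (NHE3), which exchanges sodium for protons, fell by 1.64 and 2.14. Of 4 urate and peptide transporters 2 fell in each set, Slc17a1 or NPT1 (-2.56 and -1.51) and the peptide carrier Slc15a2 or PEPT2 (-2.91 and -2.29). Among 10 transcription factors 4 fell in each set and 1 rose in set B. Hnf4a was among them, at -1.37 and -1.58. Fitted medians of these lists were -1.39 and -1.55 for gradients and scaffolds, -2.73 and -2.04 for urate and peptide transporters, and -0.98 and -1.05 for the factors.

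**Figure D5:**
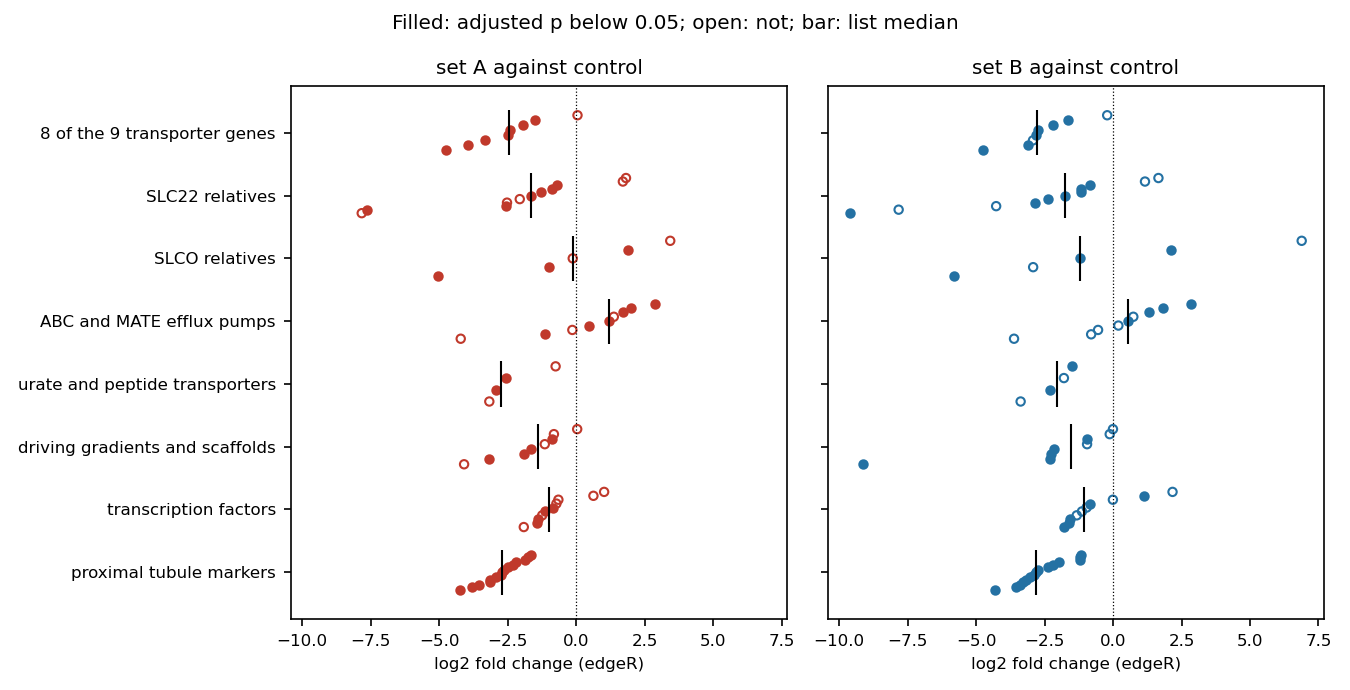
Log2 fold change against control (edgeR) of each tested gene in 8 lists, set A on the left and set B on the right; filled points passed an adjusted p of 0.05, open points did not, and the vertical bar is the list median. The transporters, SLC22 relatives and proximal tubule markers lie mostly left of 0, and the medians of the efflux pumps lie right of it (1.20 and 0.55).

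All markers of the proximal tubule fell, and most markers of other nephron segments, podocytes, endothelium and leukocytes were not called. The 15 proximal tubule markers had medians of -2.71 and -2.82, with Gatm at -4.22 and -3.39, Miox at -3.79 and -4.31 and Slc34a1 at -3.55 and -3.53, in sets A and B in turn. Of 10 markers of injured tubules 8 rose in set A and 9 in set B, led by Lcn2, Havcr1 and Krt20. In mean CPM, Lcn2 went from 0.00641 in the controls to 13.0 and 15.3, Havcr1 from 0.00638 to 11.5 and 13.1, and Krt20 from 0.0678 to 37.6 and 26.1. Of 8 markers of other nephron segments 3 fell in each set, Slc12a1 of the thick ascending limb (-3.07 and -2.56), Slc4a1 (-2.13 and -2.98) and Calb1 (-1.76 and -2.04). In set B Slc12a1 was at 542 CPM in replicate 4 and at 127 to 188 in the others. Podocyte and endothelial markers gave 2 rises of 7 in each set, Podxl (0.87 and 0.65) and Synpo (0.80 and 0.68). The endothelial gene Kdr was not called, although its highest ischemic value (38.8 CPM) was below its lowest control (39.8 CPM). The distal tubule gene Slc12a3, also not called, overlapped the controls in each set. Of 5 leukocyte markers tested 2 fell in each set, Csf1r (-1.94 and -2.30) and Cd3e, which was at 0 in all ischemic kidneys, and the beta-globin row Beta-s, the 1 gene tested of the blood, fat and adrenal list, fell by 1.24 and 1.97. No gene of any of these lists was called between the sets. Their part in the changes of the transporters was not tested.

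The genes whose pattern over the 12 kidneys was most like that of the 8 transporters were taken by Pearson's r with the mean of their standardised log2 CPM, among the 6807 genes averaging 3 or more in log2 CPM. The 5 highest were Ces1f (r = 0.99), a carboxylesterase, C1qtnf3, Man1a, Errfi1 and Lrp2, which encodes megalin, all at r = 0.99. This likeness includes the difference between control and ischemic kidneys, and 313 genes had r above 0.9. Ces1f went from 313 CPM in the controls to 49.6 and 32.5, and Lrp2 from 756 to 115 and 108.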

How the data were processed

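RNA from 12 mouse kidneys was analysed. The values deposited by the authors were raw counts per gene, without normalization, made from stranded mRNA libraries sequenced as single reads, mapped to mm10 with STAR and counted with HTSeq. Versions and the strand setting are not given in the sources used here. Counts were analysed with edgeR 4.0.16 (R 4.3.3): its default filter (minimum count 10, minimum total 15), TMM scaling and quasi-likelihood F-tests in 1 fit of all 12 kidneys, adjusted by Benjamini-Hochberg over 11664 genes (threshold 0.05). CPM used total counts. Log2 CPM had a prior count of 2. Single values were compared with two-sided exact permutation tests of CPM. Alternatives were DESeq2 1.42.0, RLE size factors, other low-count filters, only the 2 groups compared, a replicate block, limma-trend (limma 3.58.1), a prior count of 0.125, and leaving out each kidney. The procedure was tested on simulated data. Depth was 15367342 to 44793350 counts. The members and lists were chosen with earlier results of these data known. All transporters were named, and from each other list the genes past the threshold in both sets, at most the 3 largest rises and falls. Gene positions came from the mm10 annotation, and Beta-s was matched to Hbb-bs and Emr1 to Adgre1 through RefSeq synonyms. Permutation tests were run in Python 3.11.15 with NumPy 2.4.6, SciPy 1.17.1 gave the ranks, and figures were drawn with matplotlib 3.10.9. A few named genes of the lists and the promoter motifs are not reported here.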

Additional observations from a re-analysis of the deposited data

Results flagged for a closer look

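Slc22a7, the OAT2 gene, had 1 kidney far from the others of its group. Replicate 2 of set B was at 1.92 CPM, and the other kidneys of that set were at 0.0334, 0 and 0, so that the gap took 0.983 of the whole range, above Dixon's 95% critical value for 4 samples. This was the only such value among 25 groups of 4 kidneys screened, and chance alone gives about 1 in 20. No explanation was weighed.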

How the results depend on the processing

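In set A against control DESeq2 called 4 transporters instead of 7, leaving out 1 kidney gave 4 to 7, and limma-trend gave 6. In set B the count stayed between 5 and 7, and between the sets it was 0 in every setting. Replicate numbers did not pair the kidneys (correlations of deviations -0.0554 to 0.0452), and a replicate block left 7, 6 and 0 calls. Slc22a6, Slc22a8, Slc22a2 and Slc47a1 were called lower in both sets under all 19 alternatives. Slc22a7 was called in 12 of 19 in each set, Slc22a12 in 16 of 19 in set A and in 19 of 19 in set B, and Slco1a1 in 11 of 19 in set A and in 2 of 19 in set B.

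With 1 kidney left out, signs turned for Abcc2 in set A (-0.13 to 0.15) and, between the sets, for Slc22a8 (-0.61 to 0.34), Slc22a7 (-4.72 to 1.46), Slc22a2 (-0.073 to 0.54), Slco1a1 (-0.13 to 2.31) and the log2 ratio of Slc47a1 to Slc22a2 (-0.30 to 0.86). None of these had been called. The correlation with proximal tubule markers was 0.74 to 0.88 with 1 kidney left out, and its adjusted p exceeded 0.05 in 6 of 8 cases. That with Havcr1 was -0.23 to 0.14, and 0.90 without the 2 most extreme kidneys. The causes were not tested. Slco4c1 and Slc22a7 had 0 to 33 counts in ischemic kidneys, which limits what their levels can show.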
